A study of Mus musculus with 6 samples.

Results

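The actins and tropomyosins of developing mouse muscle are described here as 10 genes, selected by symbol from the 23367 entries of a gene expression table: the 6 actins Acta1, Actc1, Acta2, Actg2, Actb and Actg1, and the 4 tropomyosins Tpm1, Tpm2, Tpm3 and Tpm4. All 10 were present in the table and all passed the filter on low counts. RNA-seq was performed on poly(A) RNA from the gastrocnemius, a mixed calf muscle, of wild-type FVB mice at E18.5, PN2, PN14, PN28 and 22 weeks of age (adult), with no treatment at any stage. There were 6 libraries: PN14 had replicates 1 and 2, each from its own mouse, and every other stage had 1 library. RNA of several mice was pooled for E18.5 (male and female) and for PN2, and all mice after E18.5 were male, so stage cannot be told apart from library, from pooling or, at E18.5, from sex. The libraries held between 125402932 and 157868359 counts on genes.

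Muscle contracts when myosin pulls on thin filaments, which are polymers of actin with tropomyosin lying along their length. Tropomyosin covers the myosin binding sites until calcium acts through troponin. Separate genes encode the skeletal (Acta1), cardiac (Actc1) and smooth muscle (Acta2, Actg2) actins and the cytoplasmic actins found in nearly all cells (Actb, Actg1). Developing skeletal muscle is known to express cardiac actin beside the skeletal form. Among the tropomyosins, Tpm1 encodes the alpha form of fast and cardiac muscle, Tpm2 the beta form, Tpm3 the alpha form of slow fibers, and Tpm4 a form of cytoplasmic filaments; all these genes also give other products by alternative promoters and splicing. In whole muscle, fewer cells of a type and less RNA per cell cannot be told apart.

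Actins are known to differ most at the start of the protein, and the coding stretches are shown because they separate genes whose products are otherwise nearly alike. Each runs 5′ to 3′ on the coding strand of the GENCODE M1 transcript (NCBI37, mm9) from the start codon to the end of 5 codons that encode the same residues in all 6 genes. Capitals mark codons after the start codon that, aligned from their 3′ end, encode another residue than in Acta1.
Acta1: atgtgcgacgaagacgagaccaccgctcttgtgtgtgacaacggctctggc
Actc1: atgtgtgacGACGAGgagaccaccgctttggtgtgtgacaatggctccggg
Acta2: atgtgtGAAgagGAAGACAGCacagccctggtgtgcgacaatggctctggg
Actg2: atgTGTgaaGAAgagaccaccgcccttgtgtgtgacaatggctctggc
Actb: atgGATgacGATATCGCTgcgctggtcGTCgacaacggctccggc
Actg1: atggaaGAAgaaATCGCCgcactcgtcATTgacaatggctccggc

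The stretch had 17 codons in Acta1, Actc1 and Acta2, 16 in Actg2 and 15 in Actb and Actg1. With the start codons left out, Actc1 differed from the Acta1 codon it met in residue at 2 codons, Acta2 at 4, Actg2 at 2, Actb at 5 and Actg1 at 4. Over the whole coding sequence, the skeletal and cardiac actins shared 86.2% of bases, Actb and Actg1 shared 88.7%, and the least alike pairs shared 81.5% (Actc1 with Actg1 and Acta2 with Actg1). No 100-base window of the annotated coding transcripts of a member, a window as long as a sequencing read, was found in a transcript of another member. Shorter matches were not searched, and pseudogenes, of which Actb and Actg1 have many, were not searched.

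The promoters are shown because SRF, a transcription factor of muscle and cytoskeletal genes, binds the CArG box, and actin genes are its classic targets. The box was searched by its letters in RefSeq promoter windows (GRCm38.p6) of 250 bases before to 50 bases after each start site. It reads as the same motif on both strands. It was held by the windows of 3 members, and by 535 of all 32851 windows (1.63%). The 70 bases around each box are given with the box in capitals, all on the minus strand, for chr8:123894809-123894878 (Acta1), chr2:114052883-114052952 (Actc1) and chr11:120348546-120348615 (Actg1).
Acta1: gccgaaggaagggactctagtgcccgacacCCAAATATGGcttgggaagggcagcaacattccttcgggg
Actc1: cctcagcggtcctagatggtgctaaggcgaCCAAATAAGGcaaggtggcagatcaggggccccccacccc
Actg1: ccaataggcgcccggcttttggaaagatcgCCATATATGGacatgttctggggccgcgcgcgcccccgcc

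The box began 73 bases before the start site in Acta1, 47 in Actc1 and 90 in Actg1. The windows of Acta2, Tpm1, Tpm2, Tpm3 and Tpm4 did not hold these letters, and no window was used for Actb and Actg2. A match describes the sequence and is not a measured binding site, and its part in the levels of these genes was not tested.

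**Figure D1:**
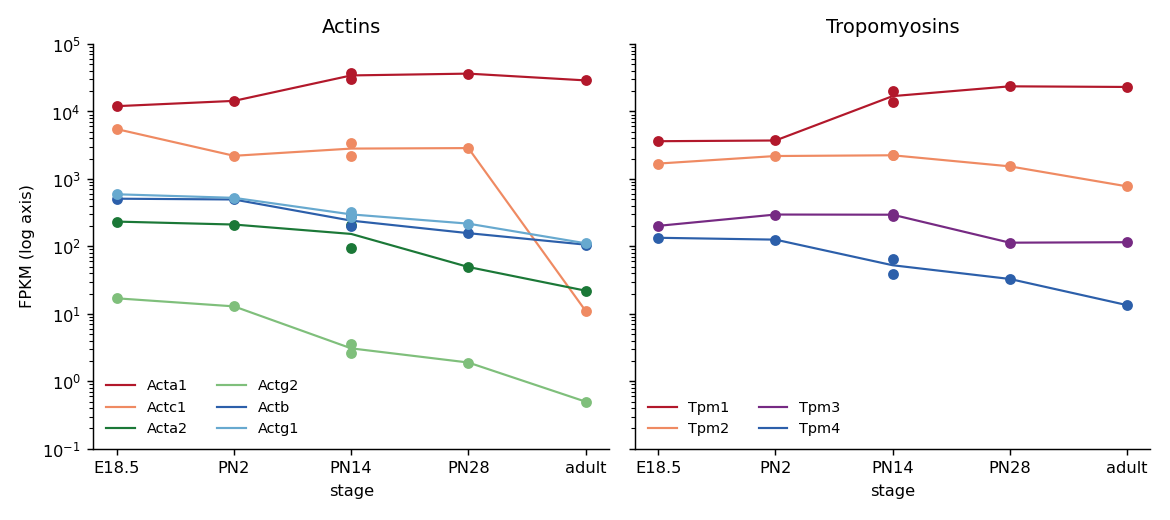
FPKM of the 6 actins (left) and the 4 tropomyosins (right) on a log axis at each stage, with a point for each library and a line through the stage means; stages are evenly spaced and not to the scale of time. Acta1 stayed at or above 11979 FPKM in all libraries, Actc1 dropped from 2864 FPKM at PN28 to 11.1 in the adult, and Actg2 was the lowest actin at every stage.

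Levels are given as FPKM, which corrects for transcript length and for the total counts of the library, so that genes can be compared with each other. Fold changes and tests come from edgeR's quasi-likelihood fit of the expected counts over all 16882 genes that passed the filter, with TMM scaling between libraries. A gene was called when its Benjamini-Hochberg adjusted p over all tested genes was under 0.05 and its log2 fold change at least 1 in size. The fit takes its spread between libraries from the PN14 pair alone (1 residual degree of freedom), so the spread of every other stage was taken to be that of PN14. The scale matters in this series: scaled by library size alone, as FPKM is, the median log2 fold change of all tested genes was -0.66 from PN2 to PN14 and -1.08 from E18.5 to adult, against -0.01 and -0.05 with TMM. Shares of a gene within its family in 1 library do not depend on this choice.

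Acta1, the skeletal muscle actin (mm9 chr8:126415669-126418651, minus strand, 7 exons), was the most abundant of the 23367 entries by FPKM in 5 of 6 libraries and the second in PN14 replicate 2. E18.5 and PN2 gave 11979 and 14345 FPKM, followed by 37682 (PN14 replicate 1), 30696 (PN14 replicate 2), 36358 (PN28) and 28863 (adult). The E18.5 and PN2 libraries were lower than the 4 later libraries. How many other genes split the libraries in this way was not counted. Acta1 alone took 2.42% of all FPKM at E18.5 and between 5.27% and 6.43% from PN14 on. From PN2 to PN14 its log2 fold change was 1.93 with an SE of 1.91, which edgeR's quasi-likelihood test did not call (adjusted p = 0.467). The SE of this fit was wide for the most abundant genes. With edgeR's exact test the adjusted p was 0.000207 and with DESeq2 1.65e-08, at log2 fold changes of 1.93 and 1.92, and with library size scaling the test also called Acta1 higher (adjusted p = 5.42e-05, log2 fold change 1.25).

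Actc1, the cardiac actin (chr2:113873018-113879284, minus strand, 7 exons), was lower after each of 2 steps far apart in time, the later of which passed the test. Its FPKM was 5472 at E18.5 and 2201 at PN2, lay at 2166 and 3465 for the PN14 replicates and at 2864 for PN28, and ended at 11.1 in the adult. By TMM-scaled CPM it had 5038 at E18.5, 2028 at PN2 and 3448 and 4608 for the PN14 replicates. PN28 had 4883 CPM and the adult 20.8. On this scale the lower level at PN2 did not last, and PN28 was near E18.5. By FPKM Actc1 was the fourth most abundant entry of the table at E18.5, still the 18th at PN28, and the 3841st in the adult library. The counts behind the last step were 568939 at PN28 and 2122 in the adult. That step was a log2 fold change of -7.87 (SE 0.99), a 234-fold lower level, and was called at an adjusted p of 0.0499, just inside the threshold. Over the alternatives to this fit the adjusted p ranged from 1.77e-118 to 0.0771, the latter when genes with a mean under 1 CPM were left out, which ended the call. The earlier step, from E18.5 to PN2, was a log2 fold change of -1.31 (SE 0.74, adjusted p = 0.912), larger than 2-fold but called only with DESeq2 (adjusted p = 0.00979) and with library size scaling (0.0170).

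As a share of skeletal and cardiac actin together, which does not depend on scaling between libraries, Actc1 made up 31.4% of FPKM at E18.5 and 13.3% at PN2. It made up 5.44% and 10.1% in the PN14 replicates and 7.30% at PN28. In the adult the share was 0.0385%. The PN28 value lay between the PN14 replicates, whereas E18.5 and PN2 lay above both and the adult below both. The ratio of Acta1 to Actc1 was 2.19 at E18.5, 12.7 at PN28 and 2596 in the adult. Taken as counts of all 6 actins, the adult Actc1 share had an exact 95% interval of 0.0341% to 0.0372%, which covers counting error only.

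The course of Actc1 can be set beside that of the embryonic and neonatal muscle genes, a list of Myh3, Myh8, Myl4, Chrng and Tnnt2. Their summed FPKM was 4995 at E18.5 and 5385 at PN2, then 38.7 and 92.2 for the PN14 replicates, 16.9 for PN28 and 7.99 for the adult. All 5 fell from PN2 to PN14, with a median log2 fold change of -4.69 against -0.01 for all tested genes, while Actc1 had 0.99 (SE 0.66, adjusted p = 0.288) in that interval. The difference between the list and Actc1 was not tested. Of the heart markers Nppa, Nppb, Nkx2-5, Gata4 and Tbx5, all 5 were under 1 FPKM in every library. Gata4 and Tbx5, at most 0.12 FPKM, were called lower in the adult than at E18.5 by the quasi-likelihood test (adjusted p = 0.0497 and 0.0442), and DESeq2 called no gene of this list there. Myh6, the other gene of that list, had between 13.1 and 51.3 FPKM; it is close in sequence to Myh7, and the split of reads between them was not checked.

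In PN14 replicate 2 several of these values were higher than in replicate 1. Actc1 was 1.60 times as high by FPKM, the embryonic and neonatal sum 92.2 against 38.7 FPKM, and the sum of 5 proliferation genes (Mki67, Top2a, Ccnb1, Cdk1, Ccna2) 29.9 against 11.8 FPKM. The part of these in the Actc1 difference was not tested. None of the 10 members differed 2-fold between the replicates on the TMM scale, where 354 of 12933 genes did (2.74%). The largest member difference on that scale was a log2 of 0.89 for Acta2, which differed 2.22-fold by FPKM.

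**Figure D2:**
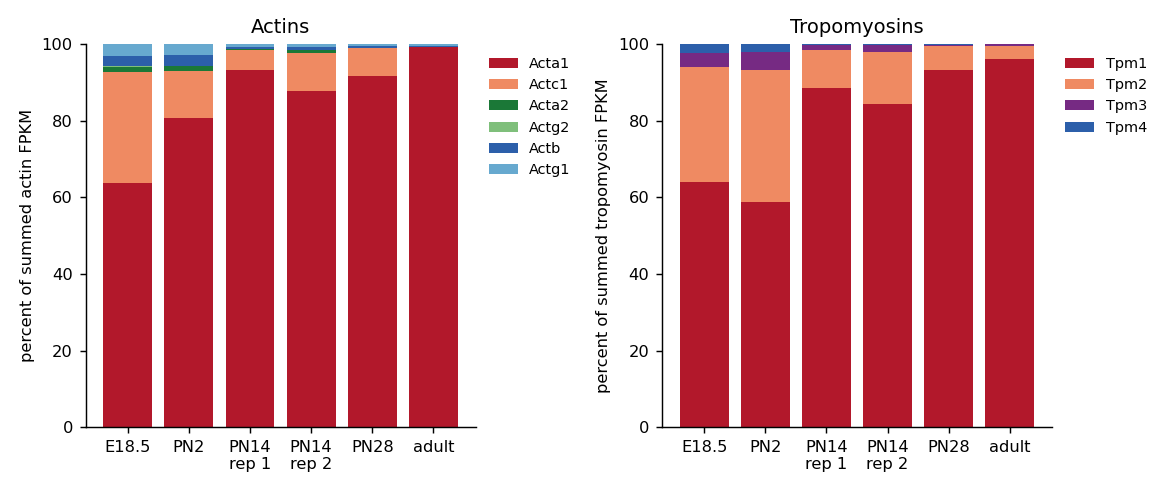
Each library's actin FPKM (left) and tropomyosin FPKM (right), split by gene as a percent of the family's sum. Actc1 shrank from 29.1% of actin at E18.5 to 0.0382% in the adult, and Tpm2 from 29.9% of tropomyosin to 3.24%.

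Acta2, the actin of vascular smooth muscle (chr19:34315580-34329826, minus strand, 9 exons), fell over the series. It started at 233 FPKM at E18.5 and 211 at PN2, and PN14 replicates 1 and 2 had 95 and 211. PN28 and adult had 49.5 and 22.1 FPKM. By FPKM the PN14 replicates spanned most of the distance between PN2 and PN28. By TMM-scaled CPM PN2 had 366, the PN14 replicates 285 and 529, and PN28 159, so replicate 2 lay above PN2. The time of the decline is thus poorly fixed. From E18.5 to adult the log2 fold change was -2.38 (SE 0.50, adjusted p = 0.0104), a called fall. From PN14 to PN28 it was -1.35 (SE 0.44, adjusted p = 0.549), which was not called, and without PN14 replicate 2 it was -0.86, under 2-fold.

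Actg2, the actin of visceral smooth muscle (chr6:83462899-83486259, minus strand, 9 exons), was the least abundant actin and fell by the widest margin after Actc1. E18.5 and PN2 had 17.0 and 12.9 FPKM, the PN14 replicates 2.59 and 3.57, PN28 1.90, and the adult 0.50, where 90 counts lay behind the value. Actg2 was the only member called from PN2 to PN14, with a log2 fold change of -1.42 (SE 0.23, adjusted p = 0.0104). Over the whole span it fell by 4.06 on the log2 scale (SE 0.32, adjusted p = 0.00123), 16.7-fold. The step from PN28 to adult, -1.79 (SE 0.30), missed the threshold at an adjusted p of 0.0644 and was called without the filter on low counts (0.0143), by edgeR's exact test (0.000699), by DESeq2 (0.00419) and with library size scaling (0.0160).

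Markers of smooth muscle and vessels were set beside these actins. Of 7 smooth muscle markers, 2 rose (Lmod1, and Synpo2, which skeletal muscle also expresses) and 1 fell (Cnn1) from E18.5 to adult. Over all tested genes 21.4% were called higher and 23.6% lower. The list's median log2 fold change was -0.34, against -0.05 for all tested genes. With library size scaling 1 rose and 4 fell (median -1.36). The direction of the sum of the 7 markers depended on the scale, with 188 FPKM at E18.5 and 122 in the adult but 466 and 890 CPM after TMM scaling. Synpo2 alone made up 632 of the 890 CPM in the adult, and went from 26.1 FPKM at E18.5 to 63.7. The higher adult sum in CPM thus rests on this gene, whose log2 fold change under TMM was 2.32. Tagln, Mylk, Smtn and Cnn1 had log2 fold changes of -0.34, -0.49, -0.74 and -2.99 under TMM. Lmod1 had 1.42, at 20.6 CPM in the adult. Myh11, the smooth muscle myosin, had 12.5 and 6.35 FPKM and a log2 fold change of 0.05 (SE 0.21) under TMM. Between the PN14 replicates, where Acta2 was 95 and 211 FPKM, the smooth muscle sum was 160 and 159 and the endothelial sum 154 and 230, and the pericyte sum was 166 in replicate 2 and lower in replicate 1. Of 6 pericyte markers 2 rose and 2 fell from E18.5 to adult (1 and 3 with library size scaling), and of 5 endothelial markers none was called by edgeR's quasi-likelihood test, its exact test or DESeq2 (0 with an unadjusted p under 0.05), while library size scaling called 4. The part of vessel content in the Acta2 values was not tested.

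Actb and Actg1, the cytoplasmic beta and gamma actins (chr5:143664794-143668433 and chr11:120207004-120209856, both on the minus strand with 6 exons), fell together over the series. For Actb, E18.5 and PN2 gave 509 and 496 FPKM, PN14 gave 204 and 278, PN28 gave 157 and the adult 106. Actg1 had 592, 524, 270 and 326, 217, and 111 FPKM in the same order of libraries. Actg1 was the higher of the pair in all 6 libraries, by a ratio of at most 1.38, at PN28.

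Both were called lower in the adult than at E18.5, Actb by a log2 fold change of -1.24 (SE 0.37, adjusted p = 0.0335) and Actg1 by -1.39 (SE 0.39, adjusted p = 0.0262). Neither was called in any of the 4 consecutive intervals with TMM scaling, and library size scaling called Actb lower from PN2 to PN14 (log2 fold change -1.04). Together they were 5.86% of actin FPKM at E18.5 and 5.73% at PN2. The share was 1.17% and 1.73% for the PN14 replicates, 0.944% for PN28 and 0.747% for the adult. Actb is often used as a reference for normalization. These libraries held 147731 unscaled counts of it at E18.5 and 27840 in the adult, and 644 and 273 CPM after TMM scaling.

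Some markers of other cell types, whose actin is mainly cytoplasmic, also changed in these libraries. Of 6 fibroblast markers 5 fell from E18.5 to adult, and their summed FPKM went from 6087 to 516. Over all tested genes 23.6% were called lower in this comparison. Of 4 satellite cell and myoblast markers 3 fell (113 to 23.2 FPKM), of 5 macrophage markers 1 fell (the sum was 9.85 FPKM in the adult; library size scaling called 4 of each list lower), and all 5 proliferation genes fell (143 to 0.51 FPKM). Their part in the cytoplasmic actin values was not tested.

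Tpm1, the alpha tropomyosin of fast muscle (chr9:66870397-66897213, minus strand), was among the 4 most abundant entries of the table by FPKM at PN28 and in the adult. Its FPKM was 3622 and 3712 before PN14 (E18.5 and PN2), 19819 and 13936 for the PN14 replicates, 23569 for PN28 and 23068 for the adult. As with Acta1, the E18.5 and PN2 libraries were lower than the 4 later ones, a split whose share over all genes was not counted. The log2 fold change from PN2 to PN14 was 2.86 with an SE of 1.51, 7.26-fold, which the quasi-likelihood test did not call (adjusted p = 0.191). It was called with edgeR's exact test (7.59e-07), with DESeq2 (3.43e-15) and with library size scaling (5.37e-11). Of 7 fast fiber markers, 3 rose from E18.5 to adult by the quasi-likelihood test and 1 from PN2 to PN14, at median log2 fold changes of 3.71 and 2.46. That test called 21.4% and 11.8% of all tested genes higher in these comparisons. Both edgeR's exact test and DESeq2 called all 7 in each of these comparisons, and library size scaling called 6 and 7.

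Tpm2, the beta tropomyosin (chr4:43527583-43536637, minus strand), was lowest in the adult by FPKM, with no call in any interval. E18.5 gave 1689 FPKM, PN2 2185, PN14 replicates 1 and 2 gave 2229 and 2253, PN28 1536 and the adult 776. The last step was a log2 fold change of -0.85 (SE 0.88, adjusted p = 0.655). Its change from E18.5 to adult depended on the scale, with a log2 fold change of 0.00 (SE 0.87, adjusted p = 1.0) under TMM and -1.03 (adjusted p = 0.00626, called) under library size scaling.

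Within the tropomyosins, Tpm2 made up 29.9% of FPKM at E18.5 and 34.6% at PN2, against 9.95% and 13.6% in the PN14 replicates. It then made up 6.08% at PN28 and 3.24% in the adult. Tpm1 made up 64.1%, 58.7%, 88.5% and 84.3%, 93.3%, and 96.2% in the same order. The mixture thus moved from about 2 Tpm1 for each Tpm2 by FPKM (a ratio of 2.14 at E18.5) to 29.7 in the adult. By counts, with no correction for length, Tpm2 exceeded Tpm1 at E18.5 (50.1% against 42.7%) and PN2 (54.9% against 37.3%), so the order of these genes before PN14 rests on the lengths used.

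Those lengths can be read back from the counts and FPKM of each library. For 9 members the implied length stayed within 1.010-fold over the libraries. For Tpm2 it was 2944 bases at E18.5 and 2928 at PN2, and from PN14 on it was 3167, 3143 (PN14 replicates 1 and 2), 3149 (PN28) and 3142 (adult). RSEM averages the length of a gene over its transcripts, weighted by their estimated abundance, so the mixture of Tpm2 transcripts it estimated differed between the libraries. The shift, 1.082-fold from lowest to highest, was larger than that of 98.3% of the 3383 genes with at least 10 FPKM in every library. The longest Tpm2 coding transcript in the GENCODE M1 annotation has 2175 bases, so the models behind these values were not the ones examined here, and a shorter length would give a proportionally higher FPKM. The same holds for Acta2, with an implied 2523 bases against 1781 annotated.

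Tpm3, the alpha tropomyosin of slow fibers (chr3:89876571-89904824, plus strand), was highest at PN2 and PN14 by FPKM. It started at 202 FPKM at E18.5, reached 296 at PN2 and 307 and 283 for the PN14 replicates, and had 113 and 115 FPKM at PN28 and in the adult. By FPKM the 3 libraries of PN2 and PN14 were close together and above the rest, and PN28 and adult were lowest. On the TMM scale the order differed, with 305 CPM at E18.5, 449 at PN2, 801 and 618 for the PN14 replicates, 318 for PN28 and 355 for the adult. PN14 replicate 1 was the highest library on both scales, and PN28 was below both PN14 replicates on both. From PN14 to PN28 the log2 fold change was -1.16 (SE 0.36), more than 2-fold, with an unadjusted p of 0.0179 and an adjusted p of 0.538, so it was not called. DESeq2 called it (adjusted p = 0.0121), as did library size scaling (0.00596), and edgeR's exact test did not (0.0682).

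The slow fiber markers Myh7, Tnnt1, Tnni1, Tnnc1, Myl2, Myl3 and Atp2a2 were, as a sum, highest at PN14 by FPKM and by TMM-scaled CPM. By FPKM both PN14 replicates were the highest libraries for Myh7, Myl2, Myl3 and Atp2a2. Tnni1 was highest at E18.5 on both scales, with 812 FPKM against 415 and 353 for the PN14 replicates. Tnnc1 was highest at E18.5 by FPKM only (526, against 523 and 413). For Tnnt1, E18.5 (622 FPKM) lay between the PN14 replicates (658 and 544). The summed FPKM of the 7 markers was 2876 (E18.5), 2663 (PN2), 4229 and 3356 (PN14), 1573 (PN28) and 1356 (adult). By TMM-scaled CPM the sum was 2796, 2654, 7160 and 5022, 2908, and 2823 in this order. The adult had the lowest sum by FPKM and PN2 the lowest by CPM. Their median log2 fold change from PN14 to PN28 was -1.03, against -0.01 for all tested genes, and none of the 7 was called there by the quasi-likelihood test (4 had an unadjusted p under 0.05), while edgeR's exact test called 2, DESeq2 3 and library size scaling 5. Between E18.5 and adult 1 rose and 1 fell, where 21.4% of all tested genes were called higher and 23.6% lower. Tpm3 made up 3.57% of tropomyosin FPKM at E18.5 and 4.69% at PN2, with 1.37% and 1.71% for the PN14 replicates, 0.449% for PN28 and 0.481% for the adult.

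Tpm4, the tropomyosin of cytoplasmic filaments (chr8:74658874-74677041, plus strand), fell over the series like the cytoplasmic actins. E18.5 and PN2 had 134 and 126 FPKM, the PN14 replicates 39.6 and 65.5, PN28 32.9 and the adult 13.5. It was the lowest tropomyosin in all 6 libraries. Between E18.5 and adult it fell by 2.29 on the log2 scale (SE 0.32, adjusted p = 0.00277), 4.89-fold. Its last step, -1.15 (SE 0.31, adjusted p = 0.145), was not called by the quasi-likelihood test, and was called by edgeR's exact test (0.0274), DESeq2 (0.0196) and library size scaling (0.0124).

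**Figure D3:**
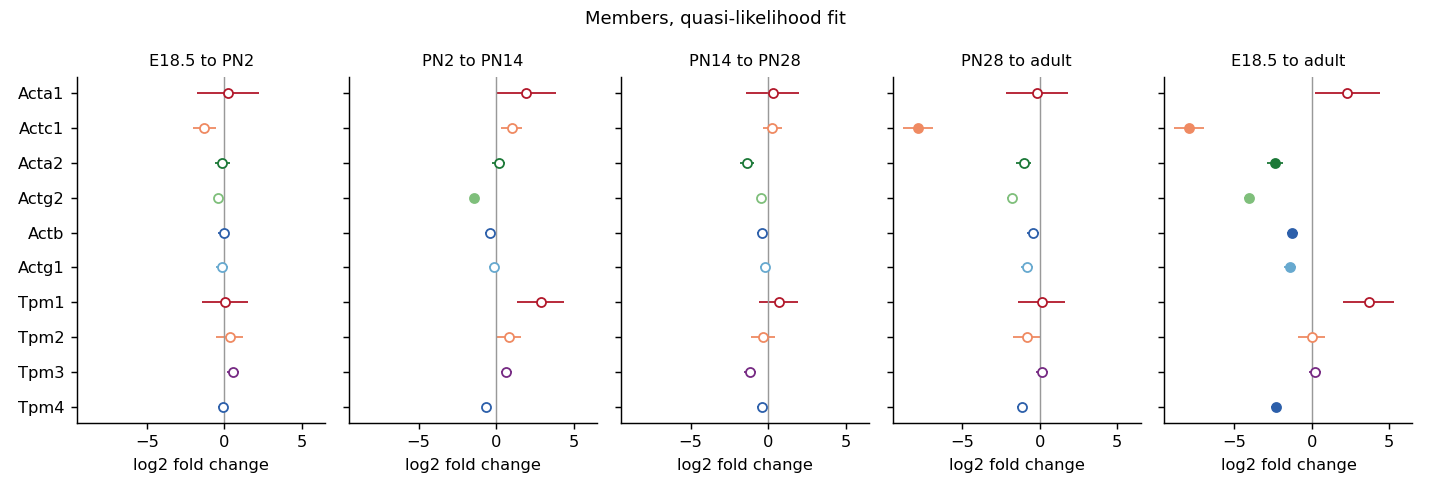
Log2 fold change of each member in the 4 consecutive intervals and from E18.5 to adult, from the quasi-likelihood fit with TMM scaling; bars are 1 SE and filled points are called. Actg2 was the only call from PN2 to PN14 and Actc1 the only call from PN28 to adult, and the widest bars belong to Acta1 and Tpm1.

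Counted over the 10 members, no gene was called from E18.5 to PN2, where 0.0178% of all tested genes were called higher and 0.0118% lower. None of the members had an unadjusted p under 0.05 there, and DESeq2 called 1. Without a test, 1 member (Actc1) was at least 2-fold lower and none 2-fold higher, where 1.51% of expressed genes were 2-fold lower and 1.93% higher.

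From PN2 to PN14, 1 of 10 members was called lower (Actg2) and none higher, where 11.2% and 11.8% of all tested genes were called in these directions. Without a test 2 were 2-fold higher (Acta1 and Tpm1) and 1 was 2-fold lower (Actg2), where 14.5% of expressed genes were 2-fold higher and 12.5% lower. These shares are near those of the members, so the counts do not set the members apart from other genes.

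From PN14 to PN28 no member was called, where 0.0178% of tested genes were called higher and 0% lower. There were 2 members with an unadjusted p under 0.05, and DESeq2 called 2, Acta2 and Tpm3. The same 2 members were at least 2-fold lower without a test, where 1.38% of expressed genes were 2-fold lower and 1.93% higher. Without PN14 replicate 2, 1 member was 2-fold lower.

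From PN28 to adult 1 of 10 was called lower (Actc1), where 0.361% of tested genes were called lower and 0.160% higher. Without a test 4 were at least 2-fold lower (Actc1, Acta2, Actg2 and Tpm4) and none higher, where 7.29% of expressed genes were 2-fold lower and 2.90% higher. The 14-day and the longer last interval both rest on 1 mouse at PN28.

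Over the whole span from E18.5 to adult 6 of 10 were called lower (Actc1, Acta2, Actg2, Actb, Actg1 and Tpm4) and none higher, where 23.6% of tested genes were called lower and 21.4% higher. Without a test the same 6 were 2-fold lower and 2, Acta1 and Tpm1, 2-fold higher, where 24.5% of expressed genes were 2-fold lower and 25.2% higher. The higher adult levels of Acta1 and Tpm1, log2 fold changes of 2.29 (SE 2.10, adjusted p = 0.387) and 3.68 (SE 1.66, adjusted p = 0.107), were not called by the quasi-likelihood test and were called by edgeR's exact test (2.19e-05 and 1.54e-09) and DESeq2. With library size scaling 2 members were called higher and 7 lower, and over all tested genes the split went from 3606 higher and 3978 lower to 1347 higher and 7700 lower. The comparisons share libraries with each other, so the intervals are not independent.

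The families as wholes took different shares of the RNA over the stages. Actin took 3.79% of all FPKM at E18.5, 6.90% and 6.05% at PN14 and 5.32% in the adult, and tropomyosin 1.14%, 3.82% and 2.86%, and 4.38%. The ratio of actin to tropomyosin FPKM was 3.33 (E18.5), 2.82 (PN2), 1.80 and 2.12 (PN14), 1.57 (PN28) and 1.21 (adult). The E18.5 and PN2 ratios lay above both PN14 replicates, and PN28 and adult below both. Together the 10 genes held 3.70% of all counts on genes at E18.5 and between 7.12% and 8.91% from PN14 on.

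Some members shared a course. Over the 6 libraries, on log2(TMM CPM + 1), Acta1 and Tpm1 had a Pearson r of 0.99, as did Actb and Tpm4, whereas Actc1 had -0.26 with Acta1 and 0.90 with Actg1. These values describe 6 points that share libraries and scaling factors, and carry no test. The TMM factors, from 0.7136 in the adult to 1.452 at E18.5 and PN2, give any gene of level FPKM a higher value in the later libraries on this scale.

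The genes most like each member were sought by the same measure among 5664 genes. For Tpm3 they were Myh6 (r = 0.941), Myh7 (0.925), the slow fiber myosin, and Atf3 (0.922), a stress-induced transcription factor. Myh7 had 207 and 220 FPKM before PN14, 403 and 363 for the PN14 replicates, 137 for PN28 and 115 for the adult. For Actc1 they were Sparc (0.989), Cpz (0.989) and Afap1l1 (0.979). Sparc, a secreted matrix protein, had 1251, 1272, 773 and 960, 805, and 140 FPKM in the same order. Like Actc1 (11.1 FPKM), it was lowest in the adult. From E18.5 to PN2 Sparc was nearly level, while Actc1 went from 5472 to 2201 FPKM. The high correlation thus rests largely on the adult library.

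**Figure D4:**
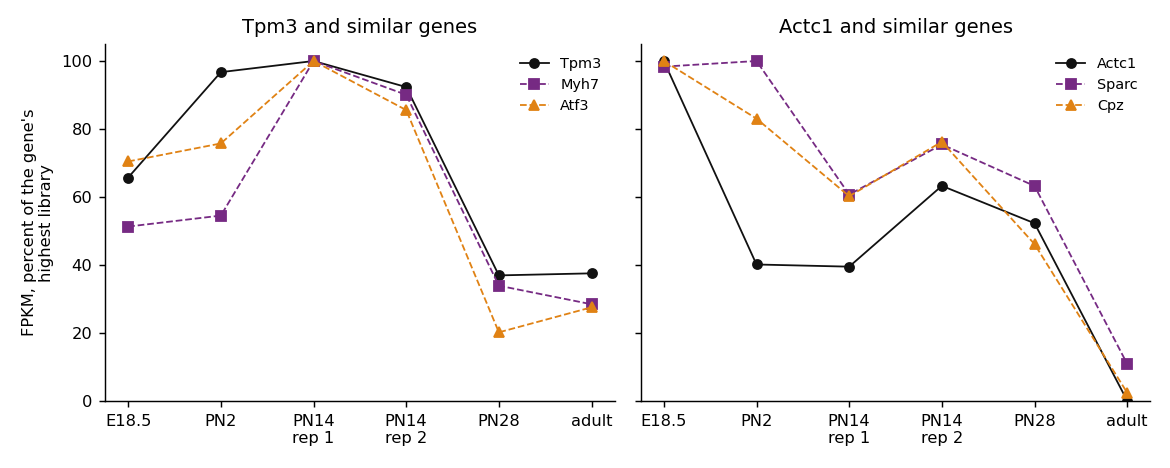
FPKM of Tpm3 with Myh7 and Atf3 (left) and of Actc1 with Sparc and Cpz (right) in the 6 libraries, as a percent of each gene's highest library. Tpm3 and Myh7 were both highest in PN14 replicate 1 (307 and 403 FPKM), and Actc1 and Sparc were both lowest in the adult (11.1 and 140 FPKM).

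For the other members the genes were varied in function. Acta1 was most like Dcun1d1 (r = 1.0), Ldhd (0.999) and Gfm1 (0.999), and Tpm1 most like Abcb1a (1.0), Galt (1.0) and Timm17a (0.999). Dcun1d1 ranged only from 6.55 to 8.04 FPKM, which shows how far the shared scaling carries such a value. Tpm2 was most like Dnmt3a (0.992), Sppl2b (0.990) and Chrnb1 (0.985), a subunit of the muscle acetylcholine receptor. Acta2 was most like Rgs3 (0.998), Tcirg1 (0.998) and Plk2 (0.996), and Actg2 most like Wdr6, Syde1 and Plxna2 (each 0.999). Actb was most like the thrombin receptor F2r (0.999), Ctnnd1 (0.999) and Mpzl1 (0.998), and Actg1 most like Adamts9 (0.996), Armcx3 (0.996) and St6galnac4 (0.995). Tpm4 was most like Wipf1 (1.0), a regulator of actin assembly, B3galtl (0.999) and Marcks (0.999), which binds actin at the membrane.

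Thin filaments need proteins that cap, measure and anchor them, and 23 such genes were followed. From PN2 to PN14 7 rose and 1 fell, where 11.8% of all tested genes were called higher and 11.2% lower. The list's median log2 fold change was 0.55. With library size scaling it was -0.12, where all genes had -0.66, and 4 of the list rose and 2 fell. The largest were Actn3 (4.0, SE 0.95), the alpha-actinin of fast fibers, Xirp2 (3.40, SE 0.65), an actin-binding Xin repeat protein, and Tmod4 (2.06, SE 0.34), a skeletal muscle tropomodulin that caps the pointed end, all of which rose. Tmod2, the neuronal tropomodulin, fell by 2.02 (SE 0.26). From E18.5 to adult 10 rose and 4 fell, where 21.4% of all tested genes were called higher and 23.6% lower. The median was 1.08, and with library size scaling 6 rose and 6 fell at a median of 0.06. This span was led by Actn3 (6.51), Xirp2 (5.66), Tmod4 (3.75) and Nrap (3.07), a nebulin-related protein of early sarcomeres. By FPKM, Actn3 went from 61.3 at E18.5 to 2736 in the adult and Tmod4 from 68.5 to 453.

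Actin also turns over through proteins that bind its monomers or cut its filaments. Of 17 such genes, 1 rose (Pfn2, a profilin) and 2 fell (Cotl1, which binds filaments, and Tmsb10, a thymosin that sequesters monomers) from PN2 to PN14, at log2 fold changes of 1.31, -1.35 and -1.15. In that interval 11.8% of all tested genes were called higher and 11.2% lower. The list's median was -0.33, against -0.01 for all tested genes, and with library size scaling none rose and 8 fell. From E18.5 to adult 4 rose and 8 fell, where 21.4% of all tested genes were called higher and 23.6% lower. The list's median was -0.81 against -0.05, and with library size scaling 2 rose and 11 fell. The largest were Tmsb10 (-3.61, SE 0.37), Cotl1 (-3.05, SE 0.41), Pfn2 (2.92, SE 0.36) and Cfl1, the non-muscle cofilin (-2.45, SE 0.35). Tmsb10 had 463 FPKM at E18.5 and 18.6 in the adult, and Cfl1 412 and 37.2.

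Of 13 genes of SRF, its coactivators and targets, 1 rose and 2 fell from PN2 to PN14. Over all tested genes 11.8% were called higher and 11.2% lower. The list's median was -0.06, against -0.01 for all tested genes. With library size scaling 1 rose and 4 fell, at a median of -0.74 against -0.66. Abra, a muscle protein that activates SRF, rose by 2.43 (SE 0.27, adjusted p = 0.00547), and the LIM protein gene Csrp2 had -1.29 (SE 0.27, adjusted p = 0.0201). Between E18.5 and adult 2 rose and 5 fell, where 21.4% of all tested genes were called higher and 23.6% lower. The list's median was -0.53 against -0.05, and with library size scaling 1 rose and 7 fell. This span was led by Abra (3.88), Csrp2 (-3.50), Fhl2 (-2.49) and Csrp3 (-2.07). Srf itself had 49.5 (E18.5), 36.9 (PN2), 26.6 and 24.9 (PN14), 25.6 (PN28) and 25.7 FPKM (adult). Under TMM its log2 fold change from E18.5 to adult was 0.08 (SE 0.28), and it was not called in any comparison. In the other intervals (E18.5 to PN2, PN14 to PN28 and PN28 to adult) no gene of these 3 lists was called by the quasi-likelihood test. In that order 1, 3 and 8 of their genes had an unadjusted p under 0.05, edgeR's exact test called 1, 2 and 3, and DESeq2 called 2, 2 and 3.

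**Figure D5:**
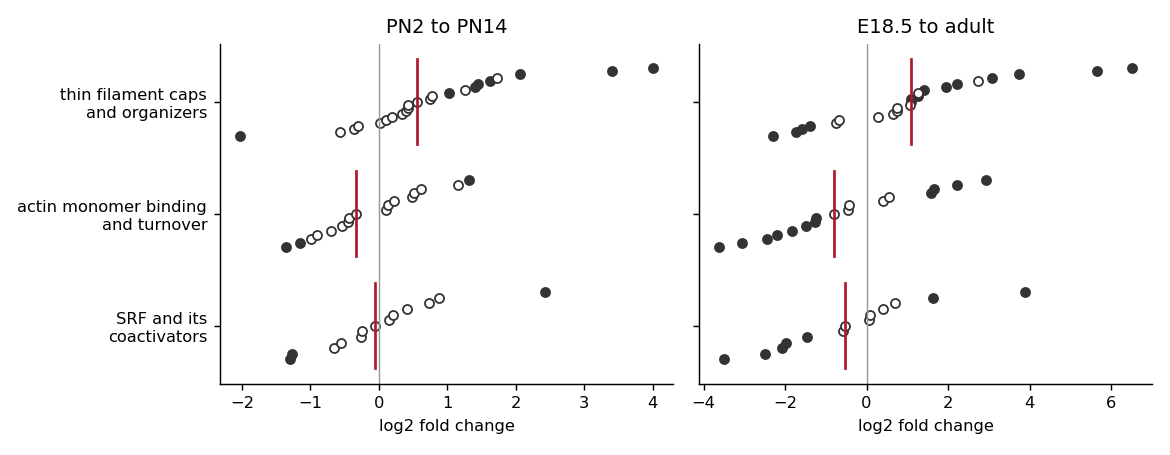
Log2 fold change of the genes of the 3 lists from PN2 to PN14 (left) and from E18.5 to adult (right), with TMM scaling; each point is a gene, filled where called, and the red lines are list medians. From E18.5 to adult 10 of 23 thin filament genes rose, and 8 of 17 monomer and turnover genes fell. Over all tested genes 21.4% were called higher and 23.6% lower.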

How the data were processed

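The authors prepared libraries from poly(A) RNA, aligned paired-end reads to mm9 with TopHat2 2.0.5 and ran RSEM (version not given in the sources used here) on RefSeq gene models. The deposited expected counts are not normalized. The deposited FPKM, also from RSEM, were scaled by the authors to transcript length and library total. Groups came from the stated ages of the samples and, at PN14, from the sample titles. Deposited columns were matched to samples by the number in their names.

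The members, lists and comparisons were chosen with earlier results of these data known. Expected counts (whole numbers in the table) were analysed in R 4.3.3 with edgeR 4.0.16: filterByExpr by stage (16882 of 23367 genes kept), TMM, and glmQLFit with all 6 libraries and the 5 stages as groups (common biological coefficient of variation 0.188, prior degrees of freedom 4.86). An SE is the log2 fold change divided by the root of the F statistic. Calls needed a Benjamini-Hochberg adjusted p under 0.05 and a change of at least 1 on the log2 scale. Differences of 2-fold without a test used log2(TMM CPM + 0.1) and genes with at least 1 CPM in 1 of the compared stages. A count of 3 is between 0.019 and 0.0239 CPM. Shares and implied lengths were computed within each library. The scripts were tested on simulated counts.

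Alternatives were library size scaling, DESeq2 size factors, no filter, a mean of at least 1 CPM, edgeR's exact test, DESeq2 1.42.0, a pseudocount of 1, counts in place of FPKM, and leaving out each PN14 replicate. All members were named. From the lists of thin filament, actin monomer and SRF genes, up to 4 called genes were named. These had the largest change among those with at least 10 CPM. Srf and Nebl were also named, chosen after their values were seen. For each member the 3 genes with the highest correlation were named, among genes with at least 10 CPM in 1 library and a highest CPM at least 2 times the lowest. Marker lists covered smooth muscle, pericyte, fibroblast, endothelial, macrophage, satellite cell, cardiac, slow and fast fiber, embryonic and neonatal muscle, and proliferation genes. Sequences came from GENCODE M1 (mm9) and from RefSeq promoter windows (GRCm38.p6), in which 8 of 10 members had an entry. Protein sequences were not used here.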

Additional observations from a re-analysis of the deposited data

How the results depend on the processing

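Of the 50 member fold changes (10 genes in 5 comparisons), all 50 kept their direction and side of the threshold with DESeq2 size factors, 41 with DESeq2's own test (the other 9 became calls) and 33 with library size scaling, where 13 became calls. With library size scaling 4 that were not called changed sign: Acta2 from PN2 to PN14 (-0.46), Tpm3 from PN2 to PN14 (-0.01), Tpm1 from PN28 to adult (-0.03) and Tpm3 from E18.5 to adult (-0.81).

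The count of called members moved as follows. From E18.5 to PN2 it was 0, and 1 with library size scaling or DESeq2. From PN2 to PN14 it was 1, 5 with library size scaling and 3 with edgeR's exact test or DESeq2, and the count of 2-fold members went from 3 to 5 with library size scaling. From PN14 to PN28 it was 0, and 2 with library size scaling or DESeq2. From PN28 to adult it was 1, and 4 with library size scaling, 2 with no filter on low counts, 3 with edgeR's exact test or DESeq2, and 0 with a mean of at least 1 CPM. From E18.5 to adult it stayed within 1.5 times the 6 given.

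Leaving out a PN14 replicate leaves no residual degree of freedom, so those values carry no test. The count of 2-fold members from PN14 to PN28 was then between 1 and 2, the lower without replicate 2, and from PN2 to PN14 between 3 and 4.

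Counts in place of FPKM gave an Actc1 share of skeletal and cardiac actin of 29.9% (E18.5), 12.6% (PN2), 6.86% (PN28) and 0.0360% (adult). They gave a Tpm3 share of tropomyosin of 4.47%, 5.59%, 2.39%, 0.768% and 0.861% from E18.5 to adult. The cause of these differences is the length correction alone. No paired analysis was possible because the libraries of different stages came from different mice.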
